A study of Mus musculus with 24 samples.

Results

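The genes described here are those whose level was highest in naive B cells and in no other group of the study. A gene was taken when the lowest of the 3 naive libraries lay at least 1 log2 unit above the highest of the 21 other libraries, and that lowest naive value was at least 10 CPM (reads of the gene scaled to a common library total). Both conditions were met by 202 of the 23420 genes in the files. They make up 1.7% of the 11885 genes that reached 1 CPM in at least 3 libraries and were tested. All 202 genes passed that filter, and all 202 also passed it with the naive libraries left out. Applied to the other groups, the same rule gave 60 genes for 4 h in vitro, 25 for in vivo activated cells, 24 for 24 h in vitro, 17 for late germinal center cells, and 0 for each of 12 h in vitro, early and peak germinal center cells. Since naive against other libraries chose these genes, every naive value below is a description and carries no test.

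The 24 RNA libraries came from sorted splenic B cells of Balb/c mice, 3 per group. The 8 groups were naive cells, B cells 4 h, 12 h and 24 h after activation in vitro, B cells activated in vivo, and germinal center (GC) B cells labelled early, peak and late. Strain, tissue, bead purification, antibody staining and sorting were common to all groups. The labels give no genotype, activating agent, immunogen, day, age, sex, animal or culture for any of them, so each p-value reflects nothing but how far these libraries scatter, which may be technical. Values are the deposited log2 levels on a scale like CPM, where 0 stands for 1 CPM. They are not divided by transcript length, so levels of different genes are not ranked against each other. In bulk libraries, fewer cells with a transcript and less of it per cell cannot be told apart.

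A naive B cell recirculates between blood and the follicles of lymphoid organs and does not divide. Textbook accounts attribute this resting state to transcription factors of the KLF and FOXO families and to antiproliferative proteins such as BTG and TOB. Its movement depends on the lipid sphingosine-1-phosphate (S1P) and on adhesion molecules. Antigen or other stimuli switch on immediate-early genes within minutes, and feedback proteins such as SOCS and DUSP family members then damp the signal. The Notch pathway, in which a cleaved receptor joins the DNA-binding protein RBPJ to switch on targets such as Hes1, directs part of the naive pool to the marginal zone.

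Promoter sequences, 250 bases before to 50 after a transcription start, were found for 148 of the 202 genes in RefSeq (build GRCm38.p6), 195 promoters in all. The palindromic cAMP response element TGACGTCA, to which CREB family factors bind, was in 6 of the 195 promoters (3.08%), of Btg2, Dusp8, Errfi1, Plk2, Shisa5 and Trp53inp2, against 3.11% of all 11907 promoters of tested genes. A match is a description of the letters and not of binding. All 6 genes fell between 4 h and 24 h in vitro, as did 79.7% of the 202 genes and 39.2% of all tested genes (limma, adjusted p under 0.05). Shisa5 fell by a log2 change of -1.32 ± 0.07, Trp53inp2 by -1.21 ± 0.16 and the others as given below. The promoters of 4 are shown, chosen after their values were seen, for their products' known roles in restraining or relaying growth signals. Each is written 5′ to 3′ on the strand of the gene, with the element in capitals.
Plk2: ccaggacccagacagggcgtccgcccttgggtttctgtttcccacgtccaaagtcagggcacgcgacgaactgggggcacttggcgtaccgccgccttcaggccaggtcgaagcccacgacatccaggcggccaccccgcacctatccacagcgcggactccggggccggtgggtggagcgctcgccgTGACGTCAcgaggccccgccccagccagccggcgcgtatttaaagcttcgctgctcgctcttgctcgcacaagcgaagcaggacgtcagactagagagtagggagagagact
Dusp8: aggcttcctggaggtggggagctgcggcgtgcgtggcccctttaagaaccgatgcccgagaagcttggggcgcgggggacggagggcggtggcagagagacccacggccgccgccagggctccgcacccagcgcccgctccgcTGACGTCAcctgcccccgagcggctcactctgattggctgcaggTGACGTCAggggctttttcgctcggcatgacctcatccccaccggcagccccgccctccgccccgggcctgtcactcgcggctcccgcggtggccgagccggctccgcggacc
Btg2: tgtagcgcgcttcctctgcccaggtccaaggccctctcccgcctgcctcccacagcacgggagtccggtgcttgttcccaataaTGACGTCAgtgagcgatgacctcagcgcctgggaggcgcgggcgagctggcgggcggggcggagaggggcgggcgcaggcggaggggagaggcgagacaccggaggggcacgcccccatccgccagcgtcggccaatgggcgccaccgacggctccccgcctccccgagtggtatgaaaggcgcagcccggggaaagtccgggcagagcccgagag
Errfi1: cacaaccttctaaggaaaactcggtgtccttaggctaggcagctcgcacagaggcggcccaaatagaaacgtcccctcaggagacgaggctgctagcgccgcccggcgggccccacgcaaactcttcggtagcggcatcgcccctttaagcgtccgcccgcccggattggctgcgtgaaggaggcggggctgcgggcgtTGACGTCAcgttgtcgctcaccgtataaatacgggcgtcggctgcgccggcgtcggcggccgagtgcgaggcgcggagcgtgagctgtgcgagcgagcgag
They lie at chr13:110394794-110395093 (Plk2, plus strand), chr7:142095235-142095534 (Dusp8, minus strand), chr1:134079106-134079405 (Btg2, minus strand) and chr4:150854820-150855119 (Errfi1, plus strand). The element began at position -62 from the start of Plk2, -107 and -63 of Dusp8, -166 of Btg2 and -51 of Errfi1.

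Other short motifs were about as frequent as in all promoters of tested genes. Both strands were searched for each. The RBPJ core TGGGAA was in 26.7% of the 195 promoters against 22.9%, the AP-1 motif TGANTCA in 5.13% against 4.86%, the NR4A element AAAGGTCA in 1.03% against 1.01%, the FOXO element GTAAACA in 3.08% against 2.57%, and the E-box CACGTG in 7.69% against 10.2%. Median GC content was 59.7% against 60.7%. The genes themselves were longer, with a median span of 31.7 kb against 23.0 kb and a median 3′ untranslated region of 1677 against 1203 bases for the longest transcript of each gene. The AU-rich nonamer TTATTTATT, a motif known from short-lived transcripts, was in that region of 22 of 198 genes (11.1%), against 8.02% of tested genes. Per kb of that region the pentamer ATTTA occurred 1.6 times, against 1.72.

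**Figure D1:**
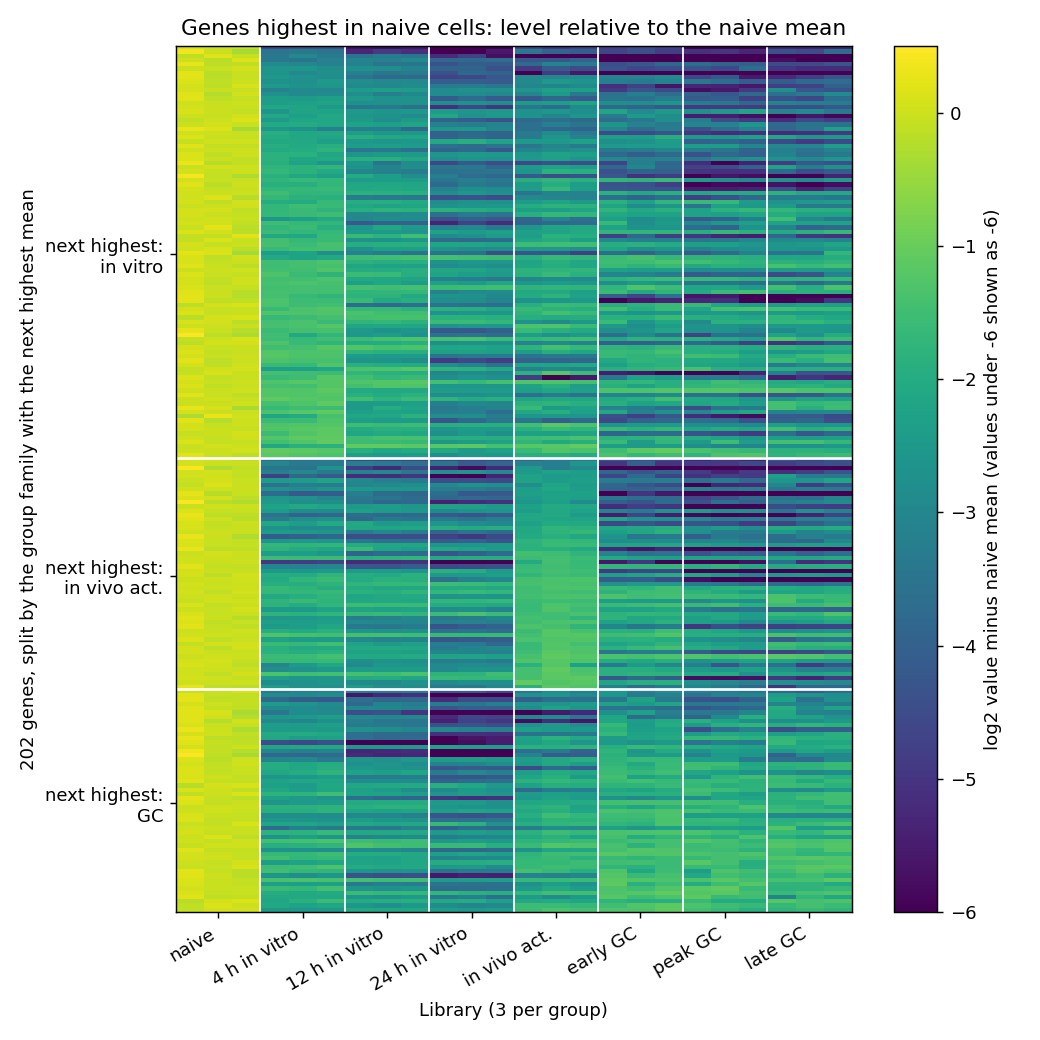
Level of each of the 202 genes (rows) in each of the 24 libraries (columns), as the deposited log2 value minus the gene's naive mean. Rows are split by which family of groups had the next highest mean (in vitro 96 genes, in vivo activated 54, GC 52). The naive columns are lightest by the choice of genes, and the other columns differ from gene to gene.

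The 202 genes stood above the next library by 1.002 to 4.25 log2 units, with a median gap of 1.32. Only 3 had a gap of 3 or more (Hes1, Abcg1 and Socs3), 33 had 2 or more, and 131 lay under 1.5. Just inside the limit were Map1lc3a, Ralgps2, Spata6, Stk17b and Lyst, with gaps of 1.002 to 1.011. Just outside were Adck3, Hexim1, Gdf11 and Rnf167, with 0.998 to 0.988. At the limit on level, Fam222a (lowest naive value 3.33), Lpcat2 (3.39) and Mapre3 (3.44) were inside, and Alpk2 (3.21), Gab3 and Serpina3f (both 3.15) were outside. The annotation lists 198 of the 202 as protein coding.

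Where the genes went outside the naive group differed. The median distance of the group mean below the naive mean was 2.01 log2 units at 4 h, 2.45 at 12 h and 2.99 at 24 h in vitro. In vivo activated cells were 2.15 below, early GC cells 2.27, peak GC cells 2.66 and late GC cells 2.59. Over all tested genes these medians lay between -0.027 and 0.071. Group means of the 202 genes were second highest at 4 h for 82 genes, in in vivo activated cells for 54 and in early GC cells for 27. They were lowest at 24 h for 88 genes, in peak GC cells for 51 and in late GC cells for 31. A set of 22 genes differed by more than 4 log2 units among the 7 other group means, among them Cobll1 (6.11) and Edaradd (5.90). The lowest group means of Cobll1 (-0.12, peak GC) and Edaradd (-2.32, late GC) were below 1 CPM, where few reads stand behind a level. Col6a4 and Cxcr7 are also in the set of 22, but each had GC libraries at the floor of the scale (under -5), so their ranges have no measured size. By contrast, the other group means of Mbd5 spanned 0.54, those of Phf21a 0.55 and those of Tlr9 0.58.

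**Figure D2:**
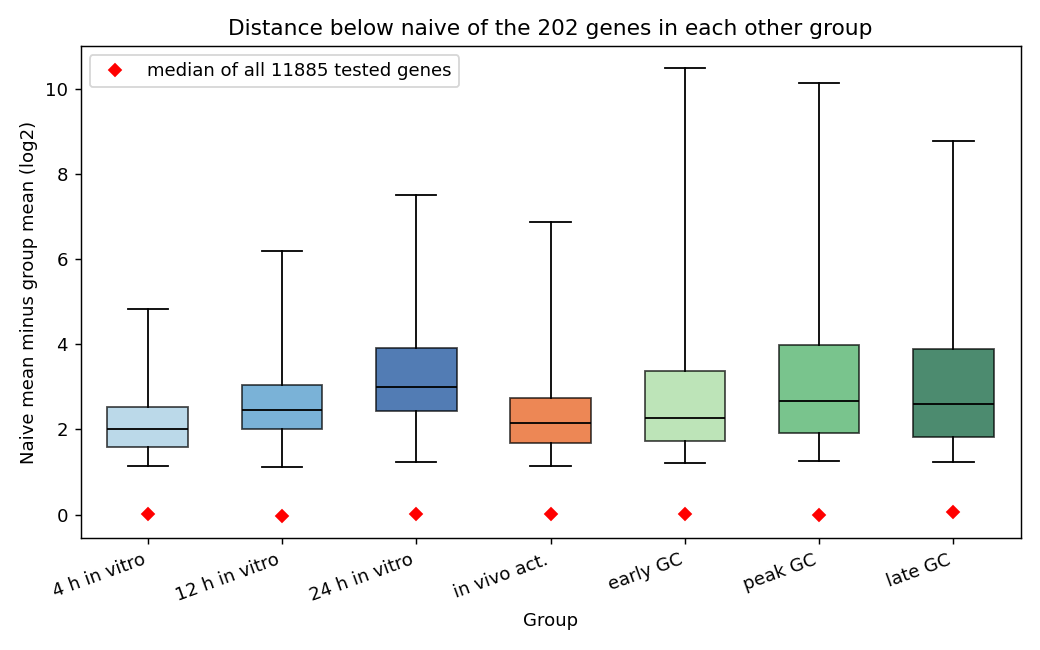
Naive mean minus group mean, in log2 units, for the 202 genes in each of the 7 other groups. Boxes span the quartiles with the median as a line, whiskers reach the lowest and highest gene, and diamonds mark the median of all 11885 tested genes. Medians of the 202 genes lie between 2.01 at 4 h and 2.99 at 24 h, and the whiskers are longest in the 3 GC groups.

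Among the naive libraries, number 1 was the highest for 142 of the 202 genes, number 2 for 28 and number 3 for 32. The median level of the 202 genes was 6.79, 6.63 and 6.62 in these libraries, against 3.48 to 4.60 in the 21 others. B-cell markers (8 genes) summed to 7170 to 7670 CPM in naive libraries and 2960 to 6840 elsewhere. All naive libraries were on top for 4 of the 8. Cd79a had the highest naive mean of that list (11.37 log2). Cd79b went the other way, with a mean of 9.60 in naive cells and 10.30 to 10.55 across the GC groups. The 202 include 6 of the 18 tested naive follicular genes, a list of markers of that cell type. Of the marker lists for other cells (marginal zone and B1 B cells, plasma cells, T cells, NK cells, dendritic cells, macrophages, neutrophils, platelets, erythroid cells and stroma), 3 genes in all are members, the NK gene Prf1 and the marginal zone genes Cr2 and Dtx1. Marginal zone markers, with Cr2 and Dtx1 counted, summed to 2390 to 2560 CPM in naive and 2800 to 3330 in in vivo activated libraries. They were at 398 to 922 in vitro and 1020 to 1180 in GC libraries. The members Cr2 (10.13 log2) and Dtx1 (8.75) had the highest naive means of that list, so much of the naive sum is these members themselves. The part of marginal zone cells in the levels of the 202 genes was not tested. Of 8 stromal and endothelial markers, 6 (Col1a1, Col1a2, Col3a1, Pdgfra, Kdr and Dcn) had naive means under 1 CPM, and the sum of 256 to 297 CPM in naive libraries, 112 to 145 in in vivo activated cells and at most 58.2 elsewhere was carried by Pecam1 (naive mean 8.06 log2). The Y-linked gene Ddx3y was at 5.71 to 5.77 in naive and 4.50 to 5.60 in in vitro libraries but at the floor of the scale, under -5, in all 12 in vivo activated and GC libraries. Eif2s3y, Kdm5d and Uty, also Y-linked, split in the same way, at or near the floor in those libraries. Xist, transcribed from the X chromosome, was at 7.01 to 7.37 in naive, 6.285 to 7.49 in in vitro and 7.91 to 8.545 in in vivo activated and GC libraries. The sex of the animals thus cannot be told apart from the split of naive and in vitro against in vivo groups. No member lies on chromosome Y and 3 lie on X. The part of sex in the levels of the 202 genes was not tested.

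Genes of the Notch pathway included the one with the widest gap. Hes1 (chr16:30064384-30067796), a transcriptional repressor and classical Notch target, was at 7.25, 7.20 and 7.13 in the naive libraries. It read 2.67, 2.84 and 2.88 at 4 h, 1.46, 1.41 and 1.59 at 12 h, and 0.59, 0.84 and 0.64 at 24 h in vitro. In in vivo activated cells it was at 2.63, 2.23 and 2.52, in early GC at 2.43, 2.68 and 2.42, in peak GC at 1.22, 1.09 and 1.10, and in late GC at 1.86, 1.81 and 1.84. No library outside the naive group came within 4.25 log2 units of the lowest naive one, and the lowest values were those at 24 h. Between 4 h and 24 h Hes1 fell by 2.10 ± 0.12 (SE; limma adjusted p = 9.85e-14), and it was lower in peak GC than in in vivo activated cells by 1.33 ± 0.12 (a log2 change of -1.33, adjusted p = 5.58e-10).

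The receptor Notch2 was at 9.58, 9.63 and 9.73 in naive cells, 8.12, 8.39 and 8.52 at 4 h, and 5.34, 5.08 and 4.75 in peak GC cells. Its levels thus ran from naive through the in vitro and in vivo activated groups (6.88 to 8.52 together) down to the 3 GC groups (4.75 to 6.02), with no overlap between these 3 sets. Maml2, a coactivator of the cleaved receptor, was at 6.48 to 6.51 in naive libraries and at 2.54 to 4.38 in the others. Nrarp, a feedback inhibitor induced by Notch, read 5.44, 5.32 and 4.80 in naive cells and 0.79 to 2.90 elsewhere, where the groups overlapped. Dtx1, an E3 ligase and Notch regulator of marginal zone B cells, was at 8.67 to 8.87 in naive cells and, with 6.25 to 6.41, lowest at 24 h.

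Of the 15 tested genes on a Notch pathway list, these 5 are members and 7 had all naive libraries above the 21 others, as did 15.8% of all tested genes. Between 4 h and 24 h, 10 of the 15 were lower and 2 higher (median -0.59, against -0.03 over all tested genes, of which 39.2% were lower and 36.8% higher). In peak GC against in vivo activated cells, 8 were lower and 5 higher (median -0.46, against -0.01 over all tested genes, 35.0% of them lower and 34.1% higher).

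The KLF and quiescence list had 7 members among 21 genes, and 17 of the 21 had all naive libraries on top, as did 15.8% of all tested genes. Klf2 (chr8:72319033-72321656), a transcription factor of resting lymphocytes that drives S1pr1, was at 11.07, 10.47 and 10.37 in naive cells. It was at 8.13, 7.84 and 7.88 at 4 h, 7.14, 6.84 and 6.86 at 12 h, and 5.22, 5.42 and 5.58 at 24 h. The 3 in vitro times did not overlap, and the fall from 4 h to 24 h was -2.54 ± 0.21 (adjusted p = 2.01e-09). In in vivo activated cells Klf2 was at 8.07, 8.34 and 7.77, and from early GC (6.59, 6.32 and 6.94) to late GC (7.39, 7.56 and 7.80) it rose by 0.97 ± 0.21 (adjusted p = 0.00177).

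Klf4, an antiproliferative relative, took another course. It was at 8.75, 8.51 and 8.45 in naive cells, 3.97 to 4.16 at 4 h, 2.16 to 2.50 at 12 h and 2.57 to 3.07 at 24 h, while the in vivo activated and GC libraries were between 5.04 and 6.93. All 12 of those libraries were thus above all 9 in vitro ones. Tsc22d3, the glucocorticoid-induced GILZ protein, was at 10.37, 9.96 and 9.96 in naive cells, 7.72 to 7.96 at 4 h and 4.11 to 4.60 at 24 h, a fall of -3.45 ± 0.13 (adjusted p = 7.47e-16), and stayed between 7.68 and 8.43 in the in vivo activated and GC libraries. The antiproliferative Tob2 was at 8.93 to 8.94 in naive cells and between 6.83 and 7.62 in all others. Klf7 and Klf13, the other KLF members, had gaps of 1.13 and 1.07.

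Across the list, 20 of 21 genes were lower and 0 higher at 24 h than at 4 h (median -1.31, against -0.03 over all tested genes), and of all tested genes 39.2% were lower and 36.8% higher. Members shared this direction with the genes of the list that did not meet the rule.

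Immediate-early and feedback genes formed another group. Nr4a1 (chr15:101254269-101274795), an orphan nuclear receptor induced by antigen receptor signals, was at 11.60, 11.69 and 11.60 in naive cells. It was next highest in in vivo activated cells, at 10.15, 10.11 and 9.88, then at 4 h, at 9.25, 9.26 and 9.07. The 15 remaining libraries were between 7.29 and 8.55. Nr4a1 was lower in peak GC than in in vivo activated cells by a log2 change of -2.51 ± 0.15 (adjusted p = 5.35e-12).

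Junb, an AP-1 subunit, was at 10.97, 10.76 and 10.57 in naive cells, 9.01 to 9.34 in in vivo activated cells, 8.37 to 8.999 in GC cells and 7.31 to 8.36 in vitro. Btg2, an immediate-early inhibitor of proliferation, was at 10.13, 10.04 and 9.94 in naive cells and fell from 7.47, 7.50 and 7.65 at 4 h to 5.72, 5.72 and 5.89 at 24 h (-1.76 ± 0.21, adjusted p = 2.37e-07). Its in vivo activated and GC libraries were between 7.55 and 8.58. The kinase Sik1, which is induced by CREB and restrains CREB coactivators, was at 9.78 to 10.07 in naive cells, 7.83 to 8.39 in in vivo activated and GC cells and 5.32 to 6.88 in vitro. For Junb, Btg2 and Sik1 alike, no library of the in vitro groups was above a library of the GC groups, apart from overlap at 4 h for Btg2.

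Socs3 (chr11:117966079-117970047), the feedback inhibitor of cytokine receptors, was at 8.44, 8.06 and 7.72 in naive cells. Its next levels were 4.59, 4.66 and 4.58 at 4 h and 4.64, 4.20 and 4.01 in in vivo activated cells, and its lowest were 1.55, 1.75 and 2.51 at 24 h. The 4 h and in vivo activated libraries overlapped.

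Plk2, a polo-like kinase induced by growth stimuli, was at 9.08, 8.64 and 8.53 in naive cells. It stood at 5.70, 5.53 and 5.70 at 4 h, 3.41, 3.48 and 3.60 at 12 h and 0.91, 1.27 and 1.56 at 24 h, a fall of -4.40 ± 0.20 between 4 h and 24 h (adjusted p = 3.63e-14). In in vivo activated cells it was at 5.11, 5.46 and 4.80, below all GC libraries, which were between 6.10 and 7.01. Dusp8, a phosphatase of stress-activated kinases, was at 4.92, 4.82 and 4.39 in naive cells, 1.27, 1.87 and 1.77 at 4 h and -1.57, -2.77 and -1.34 at 24 h. Its in vivo activated libraries, at -2.18, -0.86 and -0.58, overlapped those of 24 h and lay below all GC libraries (1.30 to 2.64). Dusp8 values under 0 lie below 1 CPM, where few reads stand behind a level. Errfi1, an inhibitor of EGF receptor family kinases, was at 4.95 to 5.19 in naive cells and fell by 1.25 ± 0.15 between 4 h and 24 h (adjusted p = 6.19e-08). Of the other phosphatases, Dusp16 was at 7.05 to 7.26 in naive cells and 4.81 to 5.58 in all 21 other libraries, and Dusp18 at 3.45 to 3.71 and -1.24 to 2.38.

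Of 26 immediate-early genes, 5 are members and 12 had all naive libraries on top, as did 15.8% of all tested genes. From 4 h to 12 h, 21 of the 26 were lower and 1 higher (median -0.79, against 0.05 over all tested genes, 27.2% of them lower and 34.6% higher). A list of 117 tested genes known to respond to tissue dissociation and cell handling holds 14 members (Socs3, Klf2, Dusp8, Sdc4, Klf4, Osgin1, Nr4a1, Btg2, Rhob, Errfi1, Irf1, Junb, Pnrc1 and Mafk). Of the 117, 45 had all naive libraries on top, against 15.8% of all tested genes. The time from spleen removal to lysis of each group is not in the labels, and the part of handling in these levels was not tested. Over all tested genes the share of members is 1.7%. The remaining lists held 3 members of 16 tested genes (DUSP and Sprouty feedback), 3 of 17 (insulin and PI3K input), 2 of 19 (cAMP and CREB), 2 of 22 (G-protein coupled receptors and RGS proteins), 2 of 24 (interferon response), 0 of 13 (circadian clock) and 0 of 19 (NF-kB and its feedback).

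**Figure D3:**
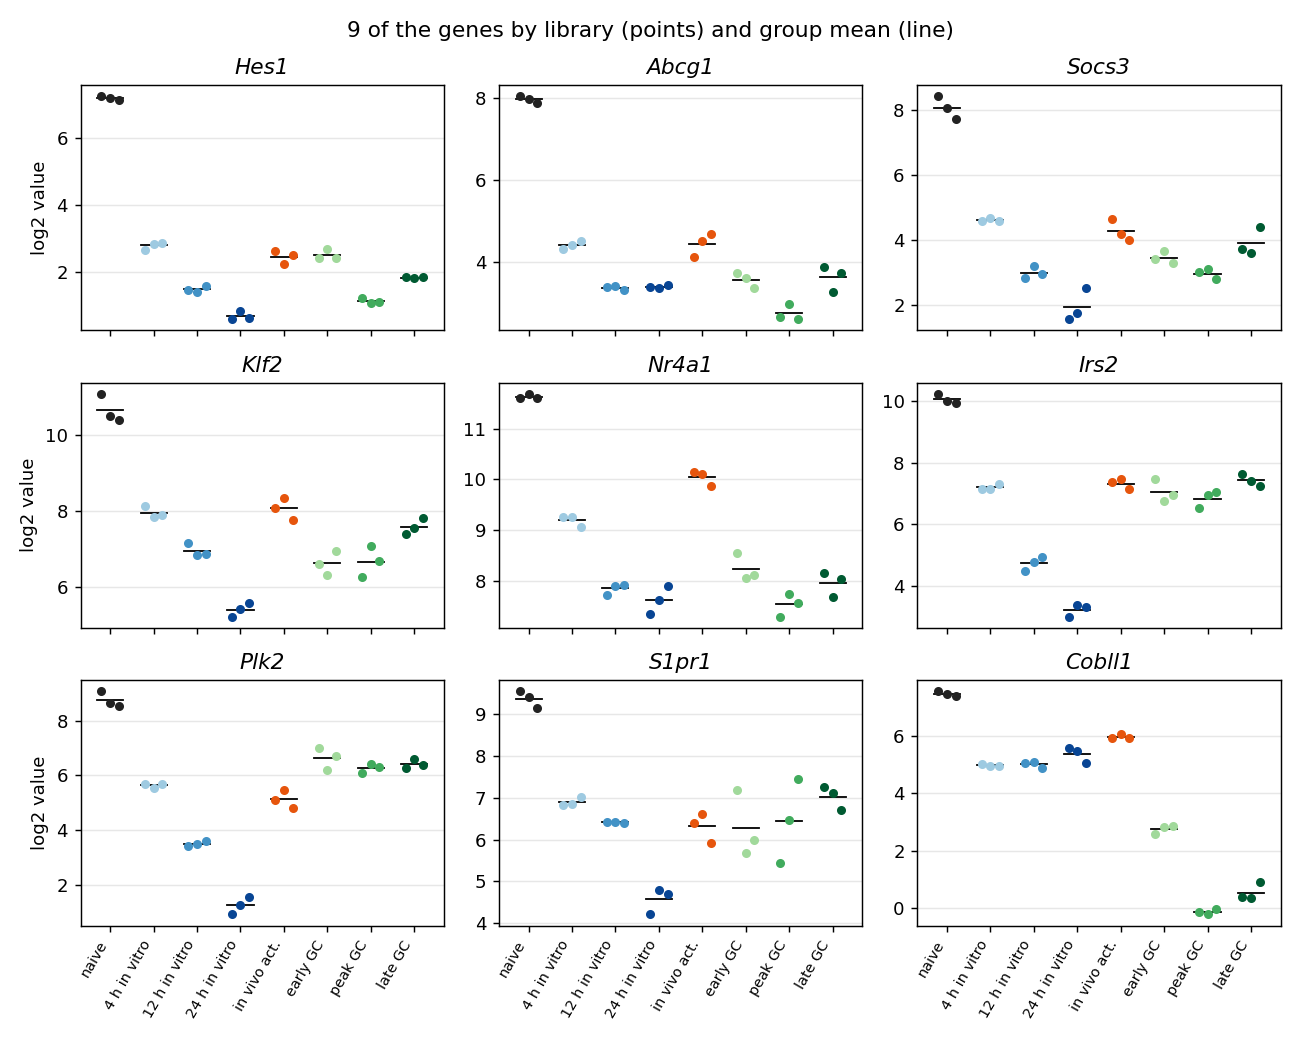
Deposited log2 values of 9 genes in the 24 libraries (points) with group means (lines); axes differ between panels. Hes1, Abcg1 and Socs3 have the widest gaps, Plk2 falls at each in vitro time, and Cobll1 is low in the GC groups, between -0.21 and 0.92 in peak and late GC cells.

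Genes of migration and adhesion differed in which groups retained them. S1pr1 (chr3:115710433-115715072), the S1P receptor for exit from lymphoid organs, was at 9.55, 9.41 and 9.16 in naive cells. It was at 6.84, 6.85 and 7.02 at 4 h, 6.40 to 6.43 at 12 h and 4.21, 4.79 and 4.71 at 24 h. In the in vivo activated and GC groups it ran from 5.45 to 7.46 with overlapping groups. The fall from 12 h to 24 h was -1.85 ± 0.39 (adjusted p = 6.24e-04), and from 4 h to 12 h the change was -0.48 ± 0.39 (adjusted p = 0.298).

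Itgb7, the integrin β7 chain of gut homing receptors, was at 8.10 to 8.38 in naive cells and 3.91 to 6.31 elsewhere. Cxcr7 (now Ackr3), an atypical receptor that removes the chemokine CXCL12, was at 6.65, 5.91 and 6.09 in naive cells, 2.999 to 3.72 in in vivo activated cells, and -5.12 to -1.33 in GC cells. One of those GC libraries, from peak GC, was at the floor. Cd55, which protects cells from complement, went from 9.36 to 9.41 in naive cells over 7.29 to 7.49 at 4 h to 5.41 to 5.53 at 24 h, and lay at 4.18 to 5.08 in GC cells. Fcer2a (CD23), the low-affinity IgE receptor of follicular B cells, was at 10.50 to 10.74 in naive and 8.03 to 9.34 in other libraries. Cr2 (CD21), the complement receptor, was at 9.97 to 10.22 in naive cells. It dropped from 8.62 to 8.75 at 4 h to 6.34 to 6.50 at 12 h (-2.24 ± 0.13, adjusted p = 1.15e-11) and then held at 6.46 to 6.58 at 24 h.

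Beside S1pr1, 3 genes of S1P handling are members. Spns2, which exports S1P, was at 6.06, 5.76 and 5.82 in naive cells and 1.12 to 3.57 elsewhere. Sgpp2, an S1P phosphatase inside the cell, was at 5.07, 4.68 and 4.65 in naive cells and next highest in in vivo activated cells, at 2.93, 3.63 and 3.54. Ppap2b (now Plpp3), which dephosphorylates S1P and lysophosphatidic acid outside the cell, was at 5.17, 4.74 and 4.87 in naive cells, 2.62 to 2.65 in in vivo activated cells, 0.72 to 1.72 in vitro and -3.81 to -0.07 in GC cells. On a list of S1P genes written after the members had been seen, 4 of 14 tested genes are members.

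Lipid transport supplied the gene with the second widest gap. Abcg1 (chr17:31057675-31117988), an ATP-driven exporter of cholesterol, was at 8.05, 7.98 and 7.88 in naive cells. It was at 4.30, 4.40 and 4.51 at 4 h and 4.12, 4.50 and 4.68 in in vivo activated cells, which overlapped, and lowest in peak GC cells at 2.65, 2.96 and 2.59. Pltp and Mylip, which like Abcg1 are targets of the oxysterol-sensing receptors LXR, were also members. Pltp, which transfers phospholipids between lipoproteins, was at 4.72 to 5.13 in naive cells and fell by 1.81 ± 0.25 from 4 h to 24 h (adjusted p = 7.00e-07). Mylip, the ligase that degrades the LDL receptor, was at 6.35 to 6.42 in naive cells and, at 2.87 to 3.29, lowest in in vivo activated cells, where peak GC cells were 1.22 ± 0.10 higher (adjusted p = 1.76e-10). On a list of LXR targets written after the members had been seen, 3 of 10 tested genes are members.

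Irs2 (chr8:10984681-11008458), the adaptor of insulin, IGF-1 and IL-4 receptors, was at 10.25, 10 and 9.95 in naive cells. It was at 7.14, 7.15 and 7.31 at 4 h, 4.49, 4.79 and 4.95 at 12 h and 2.997, 3.39 and 3.30 at 24 h, while the in vivo activated and GC libraries held between 6.53 and 7.65. The fall from 4 h to 24 h was -3.97 ± 0.17 (adjusted p = 2.06e-14). The insulin receptor gene Insr was at 5.39, 5.65 and 5.67 in naive cells and between 3.40 and 4.18 in all others.

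The members also held 2 calcium channel genes with unlike patterns. Cacna1i, a T-type channel, was at 7.97, 7.57 and 7.86 in naive cells, 5.003 to 5.92 in GC cells, 4.78 to 5.06 at 4 h and 2.01, 2.65 and 2.19 in in vivo activated cells. Cacna1e, an R-type channel, was at 6.32 to 6.50 in naive cells and 1.84 to 3.84 elsewhere. Among nucleic acid sensors, Tlr9, the endosomal receptor for unmethylated DNA, was at 7.59 to 7.72 in naive cells and 5.45 to 6.37 in the others. Ddx58, the RNA sensor RIG-I, was at 6.93 to 7.06 in naive cells, 5.45 to 5.82 in in vivo activated cells and 2.24 to 2.71 in late GC cells.

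The NK marker Prf1, perforin, was at 5.71, 5.63 and 5.07 in naive cells, and its next highest in vitro values were 3.10, 3.23 and 2.69 at 4 h. The 8 other NK markers in the files summed to 41, 34.1 and 19.6 CPM in the same naive libraries, and to 88.2, 120 and 222 CPM in late GC libraries, where Prf1 was at 1.94, 1.99 and 3.78. Prf1 and that sum were both lowest in library 3 within the naive group and highest in library 3 within late GC. The late GC sums were above the naive ones, whereas Prf1 was lower there. The part of NK cells in the level of Prf1 was not tested.

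The tests concern differences among the other groups, which the rule did not use beyond the highest of the 21 libraries. That limit caps how far a member can rise in any comparison. The shares of members called higher are therefore not like for like with those of all tested genes. In vitro, most members went on falling. From 4 h to 12 h, 108 of the 202 genes were lower and 11 higher (limma adjusted p under 0.05), or 53.5% and 5.45%, where 61.9% of all tested genes were called, 27.2% lower and 34.6% higher. Their median change was -0.39 against 0.05. The named genes with the largest falls were Irs2 (-2.46 ± 0.17), Pde4d (-2.40 ± 0.20), which degrades cAMP, Cr2, Plk2 (-2.15 ± 0.20) and Smad7 (-1.77 ± 0.12), an inhibitor of TGF-β signalling. The largest rises were those of Setbp1 (0.95 ± 0.11), Lrba (0.85 ± 0.08), a protein of vesicle trafficking, and Lmo2 (0.72 ± 0.09), a transcription cofactor.

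From 12 h to 24 h, 130 genes were lower (64.4%) and 6 higher (2.97%), against 57.3% of tested genes called, 34.8% lower and 22.5% higher, with medians of -0.57 and -0.10. Plk2 (-2.25 ± 0.20), the adhesion molecule L1cam (-2.06 ± 0.12), Tsc22d3 (-2.01 ± 0.13), Dusp8 (-2.002 ± 0.391) and S1pr1 led the falls. Klf4 was among the 6 that rose (0.44 ± 0.15, adjusted p = 0.0174). Both steps were falls for 76 genes. A further 28 fell at the first step and were not called at the second. Another 48 fell at the second and were not called at the first, and 34 were called at neither. No count of such joint calls among all tested genes is at hand, so whether they are unusual was not tested. The 3 in vitro comparisons share libraries, and their counts are given side by side.

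Over the whole span from 4 h to 24 h, 161 genes were lower (79.7%) and 11 higher (5.45%), where 76.0% of tested genes were called, 39.2% lower and 36.8% higher. A called fall of at least 2-fold was seen in 110 genes and a rise of that size in 0, where 15% of all tested genes (1781 of 11885) fell and 12.1% rose by as much. Plk2, Irs2, Dusp8 (-3.53 ± 0.39), Tsc22d3 and Pde4d (-3.45 ± 0.20) fell furthest. The 11 that rose included Lmo2 (0.88 ± 0.09, adjusted p = 4.58e-09), Dclk2 (0.86 ± 0.13) and Lrba (0.72 ± 0.08). Marker sums were also lower at 24 h than at 4 h in most lists. Platelet markers were at 140 to 143 CPM at 4 h and 8.26 to 9.35 at 24 h, dendritic markers at 64.2 to 69.6 and 14.2 to 15.7, and NK markers at 16.1 to 24.7 and 3.65 to 6.56. The platelet sum was carried by Itgb3 (7.14 log2 at 4 h, 2.985 at 24 h), while Pf4, Ppbp, Gp1bb and Gp9 had means under 1 CPM in every group. Most of the dendritic sum at 4 h came from Zbtb46 (5.18 log2). Marginal zone markers were at 895 to 922 and 398 to 430, but the members Cr2 and Dtx1 had the highest means of that list at 4 h (8.68 and 7.36 log2). B1 markers were at 283 to 291 and 155 to 159, macrophage markers at 21.3 to 24.5 and 13.1 to 14.2, and B-cell markers at 3220 to 3440 and 2960 to 3010. Their part in the falls was not tested.

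Members were also grouped by what their products do, with the genes known, for 143 of the 202. Of 24 surface receptors and adhesion or migration genes, 23 were lower at 24 h than at 4 h and 0 higher (median -1.75). Of 40 transcription and chromatin genes, 31 were lower and 4 higher (median -1.28), and of 19 genes of small GTPases and the cytoskeleton, 15 were lower and 0 higher (median -1.19). For 11 genes of innate sensing, antigen presentation and cytokines these counts were 10 and 0, for 26 signalling enzymes and feedback genes 21 and 1, for 16 lipid genes 11 and 3, and for 7 ubiquitin genes 5 and 0. The 59 genes with no role given had 45 lower and 3 higher. Over all 202 genes 79.7% were lower and 5.45% higher, and over all tested genes 39.2% and 36.8%.

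**Figure D4:**
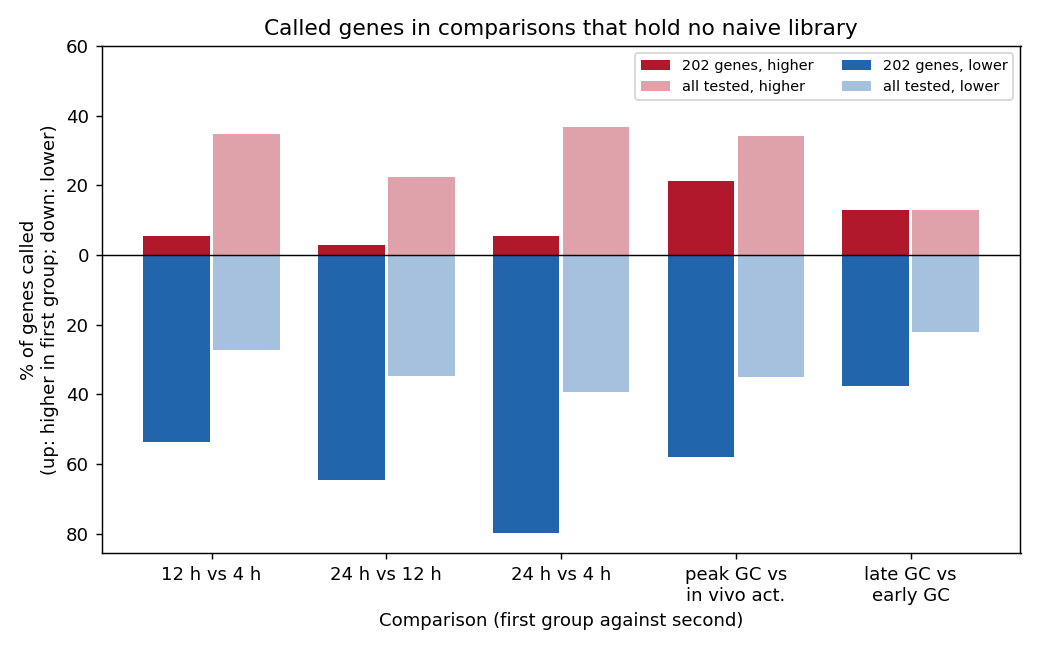
Percent of genes called higher (up) or lower (down) in the first group of each comparison, for the 202 genes (dark) and all 11885 tested genes (pale), by limma at an adjusted p under 0.05. In the in vitro comparisons the 202 genes are mostly lower at the later time, up to 79.7% from 4 h to 24 h, and the higher share in late against early GC cells (12.9%) is close to that of all tested genes (13.0%).

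Peak GC cells were compared with in vivo activated cells. Here 117 members were lower (57.9%) and 43 higher (21.3%), where 69.2% of tested genes were called, 35.0% lower and 34.1% higher. The median was -0.53 against -0.01, and 76 genes were lower and 18 higher by at least 2-fold, where 11.8% of tested genes were lower and 11.8% higher by as much. Cobll1 (chr2:65088339-65239403) was at 5.94, 6.06 and 5.95 in in vivo activated and -0.13, -0.21 and -0.03 in peak GC cells, a difference of -6.11 ± 0.13 (adjusted p = 6.47e-21). In early GC cells it was at 2.58 to 2.88, in vitro at 4.88 to 5.60 and in naive cells at 7.41 to 7.56, so that the GC libraries were below all others. The other large falls were Ppap2b (-4.998 ± 0.599), Lynx1 (-4.73 ± 0.20), Tmem163 (-4.69 ± 0.26) and Cxcr7, whose fitted difference (-7.25 ± 0.49) rests on a peak GC library at the floor and is no measured size. The peak GC means of Ppap2b (-2.36), Lynx1 (-1.22) and Tmem163 (-1.84) were below 1 CPM, where few reads stand behind a level.

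Higher in peak GC cells were Cacna1i (3.24 ± 0.20, adjusted p = 5.72e-12), Dusp8 (2.67 ± 0.39), Icosl (2.35 ± 0.14), the ligand by which B cells signal to ICOS on T cells, the collagen gene Col27a1 (2.09 ± 0.27) and the cytokine gene Tgfb3 (1.83 ± 0.17). The in vivo activated means of Dusp8 (-1.21) and Col27a1 (-1.51) were below 1 CPM. Icosl was at 6.60, 6.37 and 6.09 in peak GC and 3.61, 4.37 and 4.05 in in vivo activated cells, with 8.01 to 8.24 in naive cells. Its GC libraries (6.09 to 6.60) were all above those of 12 h and 24 h. Marker sums moved with this comparison: marginal zone markers were at 1020 to 1110 CPM in peak GC and 2800 to 3330 in in vivo activated cells, B1 markers at 51.8 to 72.3 and 356 to 420, and stromal and endothelial markers, mostly Pecam1, at 37.9 to 46.6 and 112 to 145. Platelet markers, mostly Itgb3, were higher in peak GC (201 to 215, against 12.3 to 14). So were macrophage markers (142 to 304, against 39.7 to 45.3), erythroid markers (85.9 to 107, against 8.21 to 11.7), neutrophil markers (24.3 to 103, against 3.08 to 3.85) and NK markers (45.3 to 63.9, against 4.74 to 6.61). Their part in these differences was not tested.

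Late against early GC cells gave the fewest calls. 76 genes were lower (37.6%) and 26 higher (12.9%), against 35.1% of tested genes called, 22.1% lower and 13.0% higher, and the median was -0.15 against -0.06. The largest falls were Edaradd (-3.39 ± 0.27), an adaptor of the ectodysplasin receptor, Tmem26 (-3.04 ± 0.21), Col27a1 (-2.58 ± 0.27), Lynx1 (-2.45 ± 0.20) and Cobll1 (-2.22 ± 0.13). The late GC means of Edaradd, Tmem26, Col27a1 and Lynx1 were -2.32, -1.80, -1.28 and -1.79 log2. Those lie below 1 CPM, where few reads stand behind a level. In late GC cells Arl4c, a small GTPase of the ARF family, rose by 1.72 ± 0.25 (adjusted p = 3.35e-05), Itgb7 by 1.26 ± 0.18 and the GTPase Rhob by 1.13 ± 0.15.

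Late GC library 1 stood apart in markers of other cells, with macrophage markers at 2200 CPM (756 and 539 in libraries 2 and 3, 214 to 342 in early GC) and neutrophil markers at 1130 CPM (243 and 90.2, and 29.9 to 134). NK markers (92.1 to 236, against 45.7 to 51.6), T-cell markers, mostly Lck (214 to 268, against 139 to 148), and erythroid markers (356 to 544, against 154 to 404) were also higher in late than in early GC libraries or overlapped. The part of these cells was not tested. Itgb7 was highest in that library. Without it the rise of Itgb7 was 1.04 ± 0.17 and that of Arl4c 1.62 ± 0.28, both still past the threshold, and the counts were 66 lower and 20 higher.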

How the data were processed

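Per the labels' protocols, RNA of sorted cells, isolated by an RNeasy Plus Micro Kit, was made into libraries with the TruSeq Stranded mRNA kit and sequenced as paired reads of 75 bases. The tools named in the submitters' processing notes are STAR 2.6.0c, Subread 1.6.2 with featureCounts, cutadapt 1.8.3, FastQC 0.11.5 and limma, with the genome mm10; counting options and the normalization are not given in the sources used here. The deposited values are log2 values per gene and library on a scale like CPM. Unlogged, they sum to between 990678 and 1008194, and the value at rank 1000 differed by at most 0.03 log2 between libraries. Averaged over libraries that carry the same replicate number, each gene had equal levels for all numbers within 0.00088 log2, so a difference between numbers had been taken out before deposit. The reported fits do not count the degrees of freedom that this took, so their standard errors and p-values can be too small; the fit with a replicate block does count them. Depth per library is unknown, so no counting interval could be given.

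The design had assumed counts; the files hold log2 values, and these were fitted as deposited by limma 3.58.1 (R 4.3.3) with robust moderation, a variance trend and a mean for each of the 8 groups. Genes with at least 1 CPM in at least 3 libraries were tested (11885), two-sided, with Benjamini-Hochberg adjustment over all of them, and the fit was checked on simulated data. Changes are log2 with the SE. A value under -5 log2 is called the floor.

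The 202 genes and the lists were chosen with earlier results of these data known. Named genes were those with the widest gaps, the 5 largest called changes in each direction of each of 5 comparisons, and members of the gene lists; other genes named for their role or position were chosen after their values were seen. Some genes that these rules select are left out of the text. Symbols were matched to the GENCODE annotation of GRCm38, 193 directly and 9 by a synonym. Python 3.11.15, pandas 2.3.3, numpy 2.4.6 and matplotlib 3.10.9 made tables and figures. Alternatives were other margins and levels of the rule, group means, a centred scale, other filters, fits of only the groups compared, a replicate block, and leaving out each library or group.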

Additional observations from a re-analysis of the deposited data

How the results depend on the processing

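The number of genes follows the rule's limits. It was 549 with a margin of 0.5 log2, 33 with a margin of 2, 120 with a naive level of at least 6 log2, and 305 with group means in place of the lowest and highest library. Leaving out 1 library gave 202 to 219 genes, and leaving out 1 group 205 to 290. After centring each library 202 were found, 201 of them the same. In fits of only the 2 groups compared, 138 genes were lower and 18 higher at 12 h than at 4 h. These counts were 152 and 12 at 24 h against 12 h, and 164 and 14 at 24 h against 4 h. They were 113 and 38 in peak GC against in vivo activated cells, and 56 and 18 in late against early GC cells. Leaving out each library in turn, the genes lower and higher ranged over 93 to 100 and 9 to 11 (12 h against 4 h), 123 to 129 and 4 to 6 (24 h against 12 h), 154 to 157 and 9 to 12 (24 h against 4 h), 110 to 121 and 38 to 46 (peak GC against in vivo activated) and 66 to 76 and 20 to 31 (late against early GC). A gene-by-gene check covered only a part of the 202 genes. There no direction reversed (0 of 4980 fitted values under the alternatives), 188 lost the call and 40 gained it. Those counts do not describe the other members. Deviations of same-numbered libraries correlated at -0.30 to 0.11, but as the deposited values hold no difference between numbers, this cannot show whether the numbers pair the libraries. With the replicate number as a block, 101 genes were lower and 10 higher at 12 h than at 4 h, 127 and 6 at 24 h than at 12 h, 158 and 11 at 24 h than at 4 h, 115 and 42 in peak GC than in in vivo activated cells, and 70 and 26 in late than in early GC cells. The counting depth behind low values, such as those of Dusp8 and Cxcr7 outside the naive group, is unknown.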

Other observations

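Imprinted genes are expressed from 1 parental copy. Of 12 tested genes on a list of them, written after the members had been seen, 3 are among the 202. Peg13, a noncoding RNA from an imprinted domain on chromosome 15, was at 7.33, 7.13 and 7.38 in naive cells, 3.83 to 4.79 in vitro, 4.23 to 4.39 in in vivo activated cells and 1.65 to 3.30 in GC cells. Its GC libraries were below all others. Zrsr1, a splicing factor gene, was at 5.54 to 5.80 in naive and 2.30 to 3.84 in other libraries, and Impact, an inhibitor of the stress kinase GCN2, at 6.49 to 6.55 and 3.79 to 5.19.

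Of the 202 genes, 8 pairs that follow each other along a chromosome lie within 200 kb. Genes outside the 202 can lie between them, and no count of such pairs among all tested genes is at hand. Lrba (chr3:86224680-86782692, plus strand) and Dclk2, a doublecortin-like kinase (chr3:86786151-86920852, minus strand), end 3459 bases apart. Lrba was at 7.62, 7.71 and 7.66 in naive cells, 5.54, 5.78 and 5.80 at 4 h, 6.47, 6.53 and 6.28 at 24 h, 6.48 to 6.60 in in vivo activated cells and 4.61 to 4.90 in peak GC cells. Dclk2 was at 5.53, 5.49 and 5.36, then 2.89 to 3.10 at 4 h, 3.80 to 3.85 at 24 h, 4.03 to 4.33 in in vivo activated cells and -0.35 to -0.24 in peak GC cells. Both rose between 4 h and 24 h, as did 11 of the 202 genes and 36.8% of all tested genes. Both were lower in peak GC than in in vivo activated cells (-1.81 ± 0.08, adjusted p = 2.92e-15, and -4.51 ± 0.13, adjusted p = 1.28e-18, by limma), as were 57.9% of the 202 and 35.0% of all tested genes. Whether the counting used strand is not given in the sources used here, and a part of read-through in these levels was not tested. Other pairs were A430078G23Rik and Arhgef18 (2707 bases apart), Insr and A430078G23Rik (73798), Dusp16 and Crebl2 (37529), Map1lc3a and Trp53inp2 (102986), Cmah and Fam65b (104812), and Col6a4 and Tlr9 (125815). Gm11346, a pseudogene on the minus strand, lies inside Fam65b (now Ripor2) on the plus strand, so the 2 cannot be told apart if reads were counted without strand.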
